A study of Oryza sativa with 12 samples.

Results

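In developing rice seeds, 154 probe sets were lower in the transgenic line GR14 than in every array of the other 3 groups. They were chosen from their own values. On the log2 scale of the array signal, the highest of the 3 GR14 arrays had to lie at least 1 below the lowest of the other 9 arrays, and the mean of those 9 had to be at least 8. The margin between the highest GR14 array and the lowest of the other 9 is called the gap below. Of 57194 probe sets without array controls, 17905 reached that mean and 167 of them met both conditions. By the terms of the selection, 13 probe sets of 9 genes were left out (CCA1, RCAA1, RCABP89, PORA, PSAG, SWEET2B, 0sFRO1, ASMT3 and CAD3), and 154 remained, or 0.86% of the 17905. The annotation gave a single gene for 130 of them, several genes for 2 and no gene for 22, which makes 114 different genes. An informative symbol was listed for 14 of these genes, and the other 100 are known here by a LOC identifier alone, so no role is given for them.

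The study compared seeds of the wild-type rice Wuxiangjiang9 (WT), labelled with a normal lysine level, with seeds of the transgenic lines GR14, 35S-15 and HFL1, each labelled with a high lysine level, on 3 arrays per group. Seed age is 10 days after flowering by the labels but 15 by the design text. No transgene, promoter or number of independent clones is named for any line, and nothing states that the arrays within a group stand for different plants. All plants grew in a field, and the series asks about seed development and lysine metabolism together.

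Several of the 14 genes with a symbol act in the plastid, among them CHLH, CHLP, CAO, CLA1 and OsTrxf. A young rice grain has green outer layers, above all the pericarp, around a starchy endosperm that stays without chlorophyll, and an embryo. Chlorophyll is made in plastids from a porphyrin ring into which magnesium chelatase inserts magnesium, and to which a tail from the plastid isoprenoid pathway is then attached. Golden2-like transcription factors promote the expression of genes for chlorophyll synthesis and for light harvesting in green tissue. In whole seeds, fewer cells of a type and less RNA per cell cannot be told apart.

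The arrays labelled WT were not alike. On the log2 scale, the reporter-gene probe set RPTR-Os-K01193-1_at read 4.53, 13.51 and 13.79 in the 3 WT arrays, and no array of a transgenic line exceeded 4.67. With WT array 1 as the only WT array 188 probe sets met the rule, and with WT arrays 2 and 3 alone 157 did. For the actin control, the 3' probe set exceeded the 5' probe set by 6.43 on the log2 scale in GR14 array 3 and by 4.70 to 5.92 in the other arrays. Of 2 GAPDH controls, 1 was also highest in GR14 array 3 (4.21) and the other in 35S-15 array 1 (4.93, against 3.87 in GR14 array 3), and EF1a was lowest in GR14 array 3 (-2.29). The phe, lys and dap controls were highest in GR14 array 3 as well, at 2.10, 1.61 and 4.22. Elsewhere they reached at most 0.56, 0.65 and 3.80. The bioD control was highest in GR14 array 3 by a small margin, at 1.002 against 0.999 in 35S-15 array 3. The thr, bioB, bioC and cre controls were not highest in GR14 array 3. Without GR14 array 1, 2 or 3 the rule was met by 198, 170 and 198 probe sets. Because the rule asks every array to fit, leaving out an array can only add probe sets through the gap, while the mean of the remaining arrays can take some away.

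The same rule found far fewer probe sets in the other groups. It gave 6 probe sets low in WT alone, 0 low in 35S-15 alone and 0 low in HFL1 alone. In the opposite direction, with the group mean at least 8 and the same gap, 84 probe sets were high in GR14 alone, 2 in 35S-15 alone, 1 in HFL1 alone and 0 in WT alone. These counts are a description without a test. Over all 17905 probe sets, the 3 GR14 arrays lay below the other 9 without overlap in 7.24%, and by at least 1 in 0.933%, the share that the rule itself fixed.

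The size of the difference varied widely within the set. The GR14 mean was 1.24 to 6.24 lower on the log2 scale than the mean of the other 9 arrays, with a median difference of -2.25, or 4.75-fold lower. A difference of at least 2 was found for 102 probe sets, of at least 3 for 38, of at least 4 for 14 and of at least 5 for 6. Levels in the other 9 arrays ran from 8.03 to 14.65, with a median of 10.42. In GR14 they ran from 3.46 to 12.84, with a median of 8.24, so most of these transcripts were still measured well above the array median there. The medians of the 3 GR14 arrays lay between 5.85 and 5.99. All 3 GR14 arrays were below their median for 13 probe sets, 1 or 2 of them for 20 and none for 121. For the 13, and in part for the 20, the size of the difference is uncertain, because no detection calls were used and dim signals are noisy. The plot of levels in GR14 against the other 9 arrays shows the set from dim to bright probe sets, up to a mean of 14.65.

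**Figure D1:**
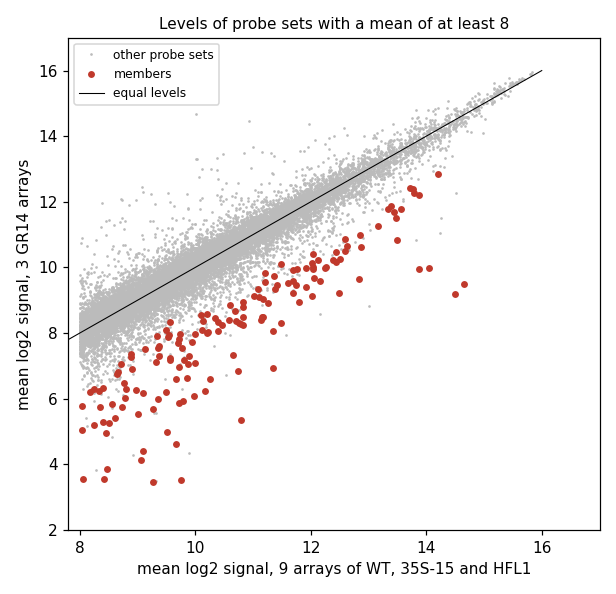
Mean log2 signal of the 3 GR14 arrays (vertical axis) against the mean of the 9 arrays of WT, 35S-15 and HFL1 (horizontal axis) for the 17905 probe sets with a mean of at least 8 in those 9 arrays; red points are the 154 chosen probe sets, grey points all others and the line marks equal levels. The red points lie 1.24 to 6.24 below the line and reach from the dimmest to nearly the brightest levels.

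The largest gap, 4.12, belonged to LOC4327573. Its log2 signals were 5.72, 5.25 and 5.05 in the GR14 arrays, 10.82, 11.93 and 9.84 in WT, 11.56, 10.71 and 9.93 in 35S-15, with 11.19, 10.94 and 10.30 in HFL1. The 9 arrays outside GR14 thus spread over about 2 log2 units, yet none came near the GR14 arrays, all of which were below their array median. LOC4326913 had the largest difference of means, with GR14 arrays at 5.67, 3.18 and 1.67 and the other 9 between 9.10 and 10.20, a 75.7-fold difference whose size is uncertain since GR14 is dim. A second probe set of LOC4326913 put GR14 at 5.96, 6.18 and 5.44 and the other 9 between 9.23 and 10.05, which is a 14.5-fold difference. Both probe sets separate the groups, and they disagree on the size.

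Brighter members of the set allow a firmer size. LOC4342135 was at 7.14, 7.24 and 6.44 in GR14 and between 10.92 and 11.96 in the other 9 arrays, with a gap of 3.68 and a 21.1-fold difference of means. LOC4351693 was at 10.27, 9.60 and 10.06 in GR14 and between 13.31 and 14.62 elsewhere, a 16.8-fold difference. LOC4326757, the brightest of the set in the other 9 arrays, was at 11.21, 8.69 and 8.60 in GR14 and between 13.40 and 15.30 elsewhere. GR14 array 1 was more than 2 log2 units above the other 2 GR14 arrays for LOC4326757, so the difference of -5.15 rests on GR14 arrays that were not alike. A second LOC4326757 probe set also had GR14 array 1 highest, at 10.69, 8.39 and 8.50 in GR14. Another LOC4326757 probe set, outside the chosen ones, went from a mean of 9.90 in the other 9 to 4.33 in GR14.

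Other genes among the 20 largest gaps had gaps from 2.19 to 3.87. LOC4349376 had 2 probe sets there, with gaps of 3.87 and 3.51 and GR14 means of 3.46 and 4.98. LOC4347805 had a gap of 3.40, LOC4333004 of 3.08, LOC4327469 of 3.00, LOC4339759 of 2.66 and LOC4336497 of 2.59. LOC4345073, LOC4343993, LOC4334513, LOC4348336, LOC9271390 and LOC4344507 had gaps of 2.48, 2.43, 2.36, 2.28, 2.26 and 2.19. Of these, LOC4334513 and LOC9271390 stayed above a log2 signal of 7.5 in every GR14 array, so their differences of -3.18 and -3.28 do not rest on dim signals. CLA1 was the only gene with an informative symbol among the 20.

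**Figure D2:**
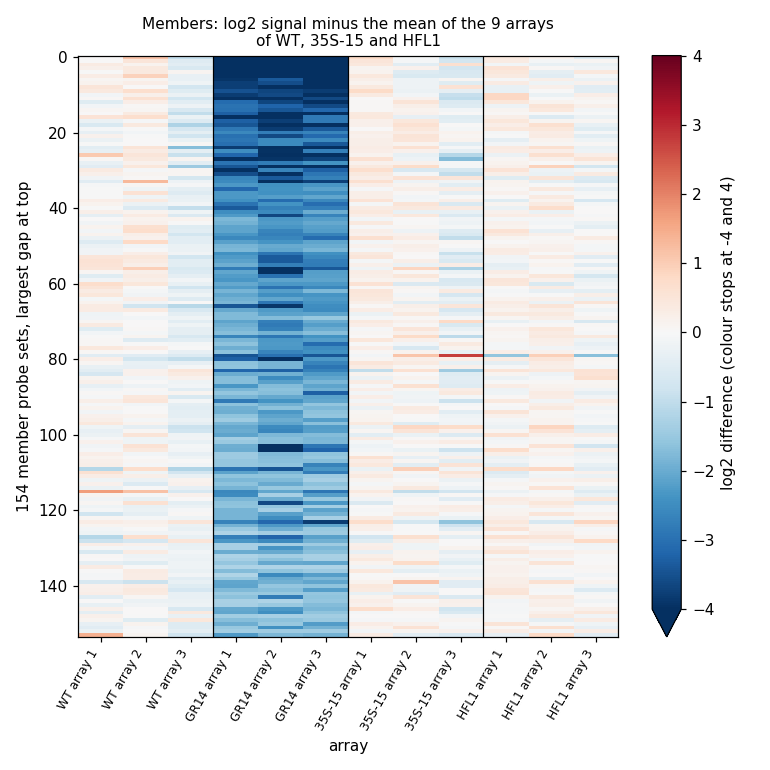
Log2 signal of each of the 154 probe sets (rows, largest gap at the top) in each of the 12 arrays (columns, in groups of 3), as the difference from the mean of the 9 arrays of WT, 35S-15 and HFL1; blue is lower, red is higher, and the colour stops at -4 and 4. The 3 GR14 columns are blue in every row, as the rule requires, while the other 9 stay near 0 apart from a few rows.

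At the threshold, the gap changed without a break. The last probe sets inside, those of LOC4340663, LOC4329191 and 1 without an annotated gene, all had a gap of 1.006. The first outside were those of LOC4352878, 1 without an annotated gene, and LOC4334163, with gaps of 0.999, 0.997 and 0.997. The lowest mean of the other 9 arrays inside was 8.03 (LOC4333060), and the highest outside at a sufficient gap was 7.98 (LOC4345612). In all, 32 probe sets had a gap of at least 1 and a mean under 8.

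Of the named genes, 4 belong to chlorophyll synthesis and its control. GLK1, a Golden2-like transcription factor, had log2 signals of 8.11, 7.13 and 7.34 in GR14, 9.80, 9.77 and 9.43 in WT, 9.82, 9.89 and 9.47 in 35S-15, with 10.04, 9.94 and 9.72 in HFL1. The GR14 arrays lay well below all others, with a gap of 1.31 and a difference of means of -2.24. GR14 array 1 was the highest of the 3.

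CHLH, the large subunit of magnesium chelatase, was at 9.94, 10.11 and 9.83 in GR14, 11.65, 11.79 and 11.35 in WT, 12.02, 11.85 and 12.06 in 35S-15, with 11.56, 11.94 and 11.62 in HFL1. The 3 GR14 arrays were close together and 3.47-fold below the other 9 on average. Another, dimmer probe set of CHLH, ending in _s_at, had a mean of 8.78 in GR14 and 8.99 in the other 9 with overlapping arrays, so the 2 probe sets disagree.

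CHLP, the geranylgeranyl reductase that prepares the chlorophyll tail, was at 10.77, 10.59 and 10.64 in GR14, 12.39, 12.49 and 12.35 in WT, 12.78, 12.84 and 12.59 in 35S-15, with 12.76, 12.80 and 12.54 in HFL1. CAO, the chlorophyllide a oxygenase that makes chlorophyll b, was at 8.42, 8.27 and 8.37 in GR14, 10.65, 10.79 and 10.65 in WT, 10.97, 10.81 and 10.29 in 35S-15, with 10.81, 10.70 and 10.65 in HFL1. Both had little spread in GR14 (SD 0.10 for CHLP and 0.07 for CAO, n = 3), and their GR14 means were 3.87-fold and 5.09-fold lower. Levels of different genes are not compared here, since each probe set has its own brightness.

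CLA1, the deoxyxylulose-phosphate synthase of the first step of plastid isoprenoid synthesis, was at 5.15, 2.71 and 2.78 in GR14, 8.42, 8.78 and 7.44 in WT, 8.82, 8.60 and 8.44 in 35S-15, with 8.47, 8.42 and 8.41 in HFL1. Its difference of -4.87 is the largest among the genes with a symbol, but all 3 GR14 arrays were below their array median. A second probe set of CLA1 went from 8.83 in the other 9 arrays to 8.04 in GR14, with overlap between the arrays. The size of the CLA1 difference is therefore uncertain.

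OsTrxf, a thioredoxin f that activates enzymes of carbon fixation in the chloroplast, was at 10.15, 9.72 and 9.95 in GR14, 12.14, 12.18 and 11.79 in WT, 12.28, 12.02 and 11.21 in 35S-15, with 12.26, 12.16 and 12.28 in HFL1. The lowest array outside GR14 was 35S-15 array 3, which set its gap at 1.06. MRS2-A, of the MRS2 family of magnesium transporters, was at 9.80, 9.87 and 9.79 in GR14 (SD 0.04, n = 3) and between 10.89 and 11.59 in the other 9, the smallest difference among the named genes at -1.38.

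OsAPRL1, of the APR-like family of thioredoxin-domain proteins, had 2 probe sets in the set. The brighter was at 9.57, 8.86 and 10.54 in GR14, 13.10, 12.11 and 11.85 in WT, 12.90, 13.07 and 13.09 in 35S-15, with 13.16, 13.32 and 12.92 in HFL1. The other had GR14 values of 9.06, 8.59 and 9.99, and the differences of means were -3.18 and -3.27. In both, GR14 array 3 was the highest GR14 array and WT arrays 2 and 3 were the lowest outside GR14.

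PIP2-2, a water channel of the plasma membrane, was at 11.64, 11.93 and 11.79 in GR14, 13.72, 13.54 and 13.14 in WT, 13.33, 13.93 and 13.59 in 35S-15, with 13.52, 13.95 and 13.43 in HFL1. A second, dimmer PIP2-2 probe set went the same way, from a mean of 9.25 in the other 9 to 5.73 in GR14, without overlap. The beta-glucosidases BGLU19 and BGLU22, of a family that splits sugars from small molecules and cell-wall fragments, had GR14 means of 7.30 and 10.42, and means over the other 9 arrays of 9.89 and 12.04. ROMT-15, annotated as a caffeoyl-CoA O-methyltransferase, an enzyme class of lignin synthesis, was 3.74-fold lower in GR14, at 11.46, 11.00 and 11.34 against 12.71 to 13.50. The starch synthase SSII-2 was at 7.13, 7.27 and 7.44 in GR14 and between 8.48 and 9.30 elsewhere, while its 2 other probe sets were dim in all groups and differed by 0.22 and -0.02.

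HSFA2D was at 6.67, 6.04 and 6.77 in GR14, 8.84, 8.78 and 8.35 in WT, 9.16, 8.98 and 9.56 in 35S-15, with 8.49, 8.66 and 8.13 in HFL1. Its other, brighter probe set had a mean of 11.62 in GR14 and 11.34 in the other 9, so the pattern belonged to 1 of the 2 probe sets. The gene record behind these probe sets lists names of 2 unlike proteins, and no role is given for it.

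**Figure D3:**
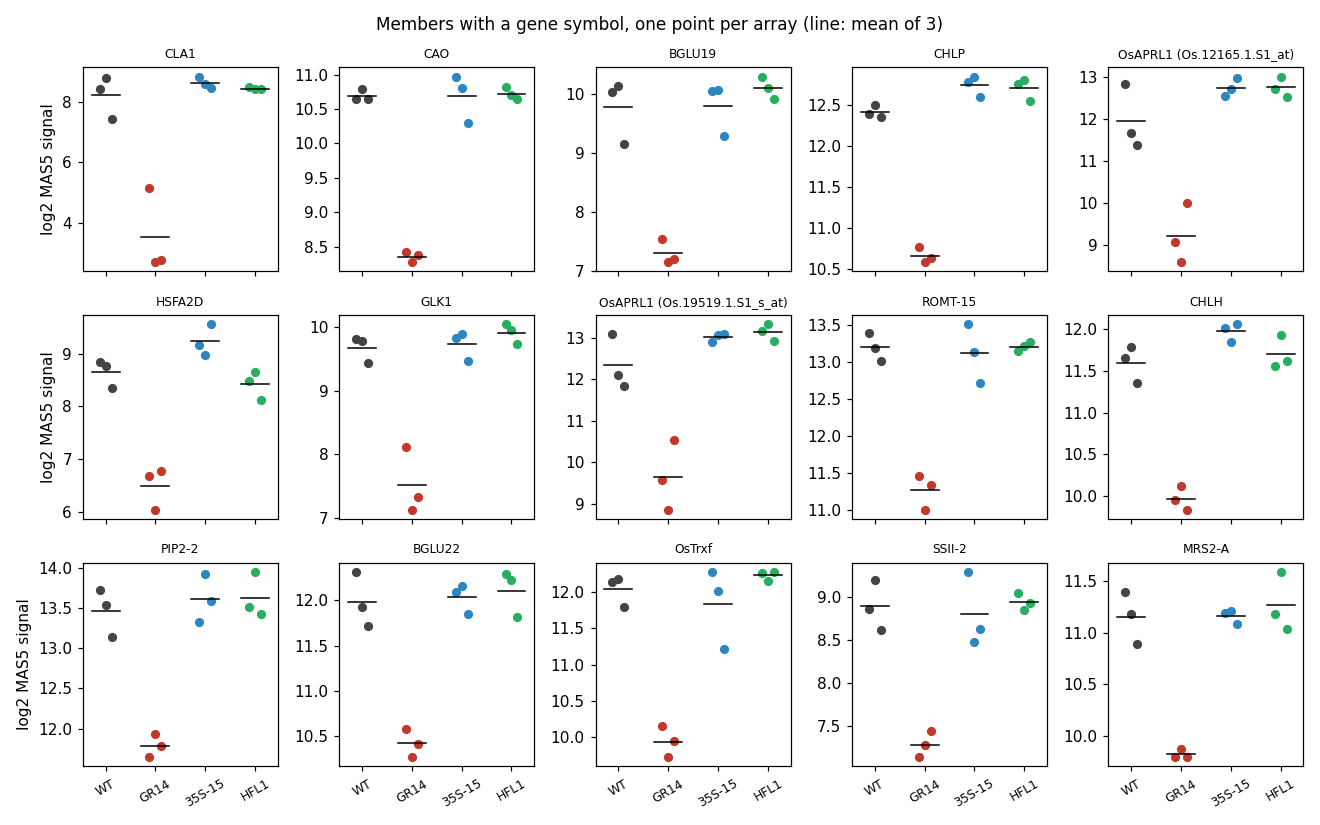
Log2 MAS5 signal in each array for the 15 probe sets of the 14 genes with an informative symbol; points are single arrays, black lines are means of 3 arrays, and each panel has its own vertical axis that does not start at 0. In each panel the 3 GR14 points lie at least 1 below all other points, as the rule requires, and the WT, 35S-15 and HFL1 points overlap in most panels.

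Other probe sets of the same genes were not used by the rule, although they come from the same arrays and the same contrast, so they are given as values only. The array held 34 other probe sets for 26 of the genes. In 26 of the 34 the GR14 mean was lower, and in 11 the arrays did not overlap, with a median difference of -0.82. Among the 16 with a mean of at least 8 in the other 9 arrays, GR14 was lower in 14 and without overlap in 9, with a median of -1.13. Over all 17905 probe sets of that brightness the median difference was 0.01, the GR14 mean was lower in 48.3%, and GR14 was lower without overlap in 7.24% as given above. The 2 bright exceptions were HSFA2D and LOC4341569, whose other probe sets were 0.28 and 0.26 higher in GR14. The rest of the other probe sets without overlap include those of LOC4325355 (-1.89), LOC4341379 (-1.61), LOC4339294 (-1.27) and LOC4352832 (-1.02), chosen after their values were seen.

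Of the genes, 12 had more than 1 probe set in it, 28 probe sets in all. The rule chose each of these for being low in GR14, so only the sizes of their differences are described. LOC4333004 had 5, with differences from -3.88 to -1.86, the largest for the dimmest probe set in GR14. LOC4340663 had 3, with differences from -2.17 to -1.95. LOC4326757, LOC4326913, LOC4329955, LOC4333060, LOC4339759, LOC4349376, LOC4351321, LOC4351694, LOC9272626 and OsAPRL1 had 2 each. The differences of LOC9272626 were -4.69 and -3.21. Those of LOC4351694 were -1.67 and -1.64, while its 2 probe sets outside the set had -2.44 and, at a dim signal, 0.24. Probe sets of 1 gene are not independent measurements of the line, and those ending in _x_at or _s_at can also bind related transcripts; 14 of the 154 end in _x_at and 16 in _s_at, together 19.5%, against 20.9% of the 17905.

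A few of the genes were neighbours in the genome. By the order of protein-coding genes in the RefSeq assembly ASM3414082v1, 6 of the 114 genes (5.26%) had another of the 114 directly beside them, against 0.80% of 12196 other genes with a probe set of at least 8. The adjacent pairs were LOC4350079 with LOC4350081, LOC4351693 with LOC4351694, and SSII-2 with CHLP. Within 5 genes on either side the counts were 11 of 114 (9.65%) and 3.99% of the other genes, with LOC4351698 near LOC4351693, LOC4331703 near HSFA2D, and LOC4336751 near LOC4336753. Between LOC4331703 and HSFA2D, 2 probe sets of the genes in between were bright enough to read, and neither was lower in GR14 without overlap (median difference 0.28). The 114 genes lay on all 12 chromosomes, with 5 to 20 on each.

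The other genes of each pathway show how far the pattern reached. For these genes, none of which is in the set, GR14 was compared with the mean of the other 3 groups in a limma model of all 31792 tested probe sets. In that comparison 5.43% of all probe sets passed as lower and 5.1% as higher. All 154 chosen probe sets pass it as lower, which the rule fixed and from which nothing is read. The lists were drawn up from gene symbols with earlier results of these arrays known.

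Of 12 genes of chlorophyll synthesis and its regulators, 4 were in the set (CHLH, CHLP, CAO and GLK1) and PORA met the rule but was left out. Of the other 7, 3 were lower in GR14, 0 were higher and 4 did not pass, with a median difference of -0.81. GLK2, the second Golden2-like factor, was 1.19 ± 0.14 (SE) lower, at 9.57 ± 0.17 (SD, n = 3) in GR14 and 10.64 to 10.94 in the means of the other groups (limma adjusted p = 8.76e-05). PORB, a protochlorophyllide reductase, and HEMB, an early enzyme of the porphyrin pathway, had differences of -0.90 ± 0.12 and -0.81 ± 0.10 (limma adjusted p = 0.000315 and 0.000226). The PORB means were 10.18 in GR14, 10.65 in WT, 11.30 in 35S-15 and 11.28 in HFL1, so GR14 was closer to WT than to the other lines. CHLI and CHLD, the other magnesium chelatase subunits, had differences of -1.06 ± 0.36 and -0.14 ± 0.13 (limma adjusted p = 0.079 and 0.575). CHLI was dim, with means of 5.48 in GR14 and 6.54 in the other 9 arrays, so the size of its difference is uncertain. CHLG, which joins the tail to the ring, had 0.28 ± 0.11 (limma adjusted p = 0.144). HEMD, another porphyrin enzyme, had -0.05 ± 0.16. The PORB probe set ends in _x_at and that of HEMB in _s_at, and without such probe sets 1 of these genes, GLK2, remained lower.

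Of 11 genes of plastid isoprenoid and carotenoid synthesis, CLA1 was in the set. Of the other 10, 3 were lower in GR14, 0 were higher and 7 did not pass, with a median of -0.12. The phytoene synthases PSY2 and PSY1, which open the carotenoid branch, had differences of -1.84 ± 0.25 and -0.77 ± 0.12, and ISPH, the last enzyme of the plastid pathway, had -0.64 ± 0.12 (limma adjusted p = 0.000371, 0.000854 and 0.00386). DXPS and DXR, at and after the step of CLA1, had 0.40 ± 0.27 and 0.07 ± 0.14 and did not pass.

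Of 10 plasma membrane PIP aquaporins, 9 were bright enough to test and PIP2-2 was in the set. Of the other 8, 4 were lower in GR14, 0 were higher and 4 did not pass. PIP1-3 had a difference of -1.72 ± 0.14, with 11.68 ± 0.22 (SD, n = 3) in GR14 and 12.98 to 13.63 in the means of the other groups (limma adjusted p = 6.78e-06). PIP2-4, PIP1-1 and PIP1-2 had -1.49 ± 0.26, -0.89 ± 0.14 and -0.64 ± 0.11, while PIP2-1, PIP2-5, PIP2-6 and PIP2-7 ran from -0.28 to 0.71 and did not pass. Related aquaporins are similar in sequence, so cross-binding between their probe sets is possible and was not tested.

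**Figure D4:**
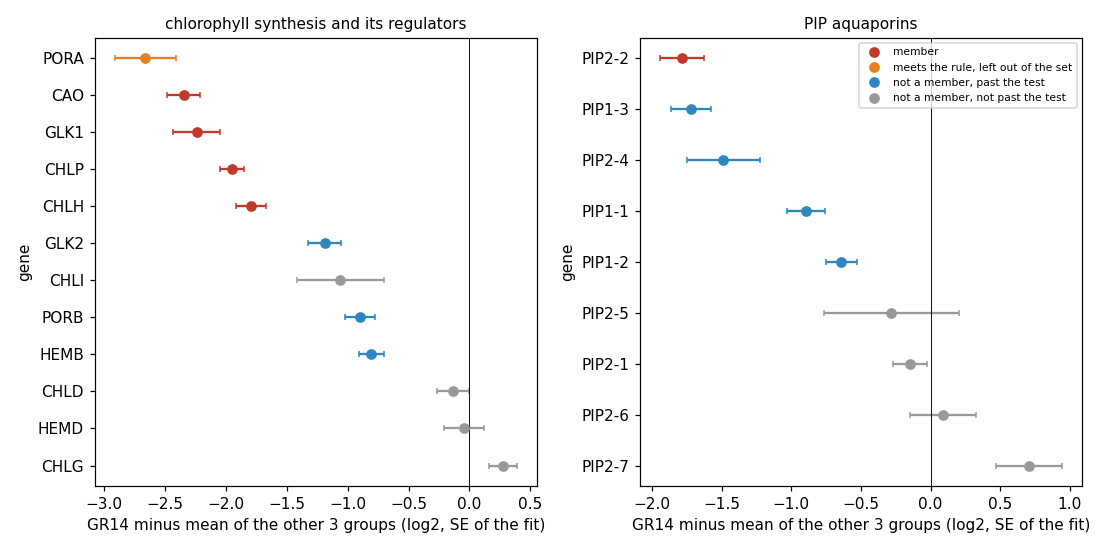
Difference in log2 signal between GR14 and the mean of the other 3 groups for the tested genes of chlorophyll synthesis (left) and the PIP aquaporins (right); points are the brightest probe set of each gene, bars are standard errors of the limma fit and the vertical line marks 0. Red genes were chosen for this difference and PORA (orange) met the rule, so only the blue and grey genes bear on the rest of each list: 3 of 7 and 4 of 8 passed the test as lower.

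Other families of the named genes were mostly not past the test. Of 20 tested beta-glucosidases outside the set, 4 were lower (BGLU12, BGLU13, BGLU16 and BGLU36, by 0.67 to 1.68), 0 were higher and 16 did not pass. The arrays of BGLU12, BGLU13 and BGLU16 overlapped. BGLU16, with the largest difference, had means of 8.47 in GR14, 9.31 in WT, 10.69 in 35S-15 and 10.45 in HFL1. For BGLU16, GR14 was thus closer to WT than to the other lines. None of the 4 other thioredoxins, the 6 other MRS2 transporters or the 2 other caffeoyl-CoA O-methyltransferases passed in either direction. Of 4 other APR-like genes, OsAPRL5 was higher in GR14 by 0.94 ± 0.13 (limma adjusted p = 0.000505) and 3 did not pass. Of 4 other starch synthases, SSI was higher by 0.97 ± 0.25 (limma adjusted p = 0.0257) and 3 did not pass.

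Symbol-based lists of photosynthesis and clock genes are given for context. They hold none of the 154 probe sets because RCAA1, RCABP89, PSAG and CCA1, which met the rule, were left out. The 100 genes of the set without an informative symbol could not be placed in any list. Of 11 tested photosynthesis genes that were not left out, 3 were lower (RCABP69 by 1.31, PSB28 by 0.82 and PSAH by 0.47) and 1 was higher, FNR LFNR1 by 0.42. RCABP69 and PSB28 passed in every setting run, whereas PSAH, whose arrays overlapped, passed in 13 of 21 and FNR LFNR1 in 8 of 21. PSAH no longer passed without any 1 of the GR14 arrays, without WT array 3 or with WT array 1 alone. Its means were 11.43 in GR14, 11.54 in WT, 12.15 in 35S-15 and 12.02 in HFL1, so its difference came mostly from the other 2 lines. Of 10 clock and light-signalling genes other than CCA1, 0 were lower and 4 were higher, namely PCL1, LIR1, GI and PRR1 by 5.76, 2.37, 1.42 and 1.03. PCL1 was near or below the array median in the other groups, so its size is uncertain.

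Markers of seed tissues were read beside the set. The summed signal of 8 green-tissue markers was 15.72 to 15.81 on the log2 scale in GR14, against 16.36 to 16.50 in WT, 16.61 to 17.03 in 35S-15 and 16.59 to 16.86 in HFL1, without overlap. Of these markers 5 were lower in GR14 without overlap, namely RCAA1, RCABP89, PORA and PSAG, which met the rule themselves, and RCABP69. Without the 4 that met the rule, the summed signal was 15.49 to 15.53 in GR14 and overlapped with the 15.53 to 15.63 of WT, while 35S-15 had 15.80 to 16.25 and HFL1 15.71 to 15.97. RBCS and CAB2R overlapped, with differences of -0.44 and -0.12, and RBCS-A was below every array median. The summed signal of 11 endosperm markers ran from 18.35 to 18.75 in GR14, within the 18.15 to 18.96 of the other groups, and that of 4 embryo and aleurone markers from 13.73 to 14.52, within 13.24 to 14.63. Of the endosperm markers 0 were lower or higher without overlap, and of the embryo markers VP1 was higher in GR14. The brightest markers weigh most in these sums. In GR14, CAB2R had a mean of 15.17 among the 4 green markers that remained. LEA3 had 13.65 among the embryo markers, against 12.08 for VP1, so the embryo sum hardly reflects VP1. GluB4 and AMY1A were below every array median. The part of a smaller share of green tissue in the low levels of the set was not tested.

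The rule did not compare WT, 35S-15 and HFL1 with each other, but it used the lowest array and the mean over these groups. A low array in any of them made a probe set less likely to be chosen. The values below are therefore not independent of the rule. All 154 probe sets were tested in the contrasts among these groups, and 0 passed at a limma adjusted p under 0.05 in each of the 3. Over all tested probe sets, 0.0283% passed for 35S-15 against WT, 0.0283% for HFL1 against WT and 0.00629% for HFL1 against 35S-15, so a count of 0 in 154 is near that background. At an unadjusted p under 0.05, 18, 15 and 12 of the 154 passed (11.7%, 9.74% and 7.79%), against 6.19%, 6.74% and 4.46% of all tested probe sets. The tested probe sets include dim ones, whereas every member has a mean of at least 8, so these shares are not matched for brightness. The smallest limma adjusted p of the 154 were 0.802, 0.624 and 0.974. With 3 arrays a group, small differences could not be detected, and these values do not show that the 3 groups were alike.

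The order of the 3 groups outside GR14 depended in part on WT array 3. With all 9 arrays, HFL1 had the highest of the 3 means for 76 of the 154 probe sets (49.4%, against 32.7% of all bright probe sets), 35S-15 for 48 (31.2% against 30.8%) and WT for 30 (19.5% against 36.5%). WT had the lowest mean for 80 (51.9% against 33.2%). Without WT array 3, HFL1 was highest for 53 (34.4% against 33.8%) and WT for 60 (39.0% against 38.1%), and WT was lowest for 56 (36.4% against 36.0%). Some order remained, since 35S-15 was then lowest for 64 (41.6% against 30.6%) and HFL1 for 34 (22.1% against 33.4%). With all 9 arrays those counts were 49 (31.8% against 33.5%) and 25 (16.2% against 33.2%). The median difference from WT was 0.08 in 35S-15 and 0.14 in HFL1, against 0.01 and 0.01 over all tested probe sets. Of the 154, 94 (61.0%) and 110 (71.4%) were higher than WT, against 51.8% and 51.5% of all tested probe sets. Unlike the bright probe sets used for the order, all tested probe sets include dim ones. The arrays compared here also entered the rule through their lowest value and their mean, so these shares are not independent of the rule. Without WT array 3 the medians were -0.02 and 0.00, and with WT array 1 alone they were 0.00 and 0.05. Median centring gave -0.08 and 0.07, but it moved the median of all tested probe sets to -0.14 and -0.07, so the set kept its place above that median. These 3 comparisons share arrays, and the differences are small beside the gap to GR14: the span of the 3 means was under 0.5 for 117 probe sets and over 1 for 3.

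By array, WT array 3 had the lowest values of the set outside GR14. The median of the 154 probe sets, taken as the difference from the mean of the 9 arrays, was -0.31 in WT array 3 but 0.00 and 0.07 in WT arrays 1 and 2. It was 0.19, 0.09 and -0.18 in the 35S-15 arrays and 0.11, 0.15 and -0.04 in the HFL1 arrays, while all bright probe sets had medians between -0.01 and 0.02 there. WT array 3 was the lowest of the 9 for 58 probe sets and 35S-15 array 3 for 47, so these 2 arrays set the gap for most of the set. Among the GR14 arrays, array 1 was the highest for 83 probe sets, array 3 for 46 and array 2 for 25.

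**Figure D5:**
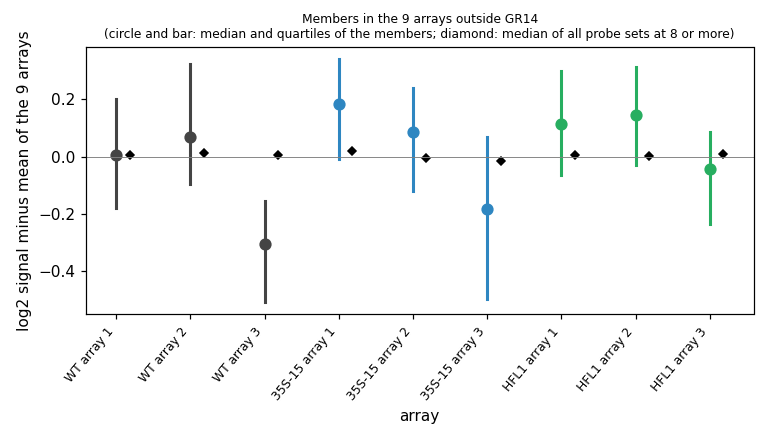
Log2 signal minus the mean of the 9 arrays outside GR14, for each of those arrays; circles are medians and bars the quartile range over the 154 probe sets, and diamonds are medians over all 17905 probe sets with a mean of at least 8. WT array 3 (-0.31) and 35S-15 array 3 (-0.18) have the lowest medians of the set, while the diamonds stay within 0.02 of 0.

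No gene with a symbol passed in these contrasts. For CAO the differences from WT were -0.01 ± 0.17 (SE) in 35S-15 and 0.02 ± 0.17 in HFL1, and for GLK1 they were 0.06 ± 0.24 and 0.23 ± 0.24. CHLP was 0.33 ± 0.12 and 0.29 ± 0.12 above WT, and CHLH 0.38 ± 0.15 and 0.11 ± 0.15 (limma adjusted p from 0.724 to 0.936). OsAPRL1 had the largest such differences of the named genes, 0.78 ± 0.36 and 0.79 ± 0.36. For that probe set, WT arrays 2 and 3, in which the reporter-gene probe set read high, were at 11.68 and 11.38. WT array 1 was at 12.83, near the means of 12.75 in 35S-15 and 12.76 in HFL1.

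Some members, picked after their values were seen, stood out among the 3 groups without passing the adjusted test. A probe set with no annotated gene had the widest span, at 9.40, 10.62 and 12.27 in the 35S-15 arrays, 7.91, 10.45 and 7.82 in HFL1, 9.05, 9.04 and 8.96 in WT and 6.04, 6.50 and 6.09 in GR14. Its arrays differed more within 35S-15 and HFL1 than within WT or GR14. LOC4330625 had the lowest p for 35S-15 against WT (0.51 ± 0.14, limma adjusted p = 0.802), a probe set with no annotated gene for HFL1 against WT (0.64 ± 0.20, adjusted p = 0.624) and LOC4349351 for HFL1 against 35S-15 (0.78 ± 0.21, adjusted p = 0.974). HSFA2D was 0.81 ± 0.25 lower in HFL1 than in 35S-15, with an adjusted p of 0.974.

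The spread between arrays of a group was larger in the set than over all bright probe sets. The median SD of 3 arrays was 0.31 in GR14, 0.30 in WT, 0.32 in 35S-15 and 0.23 in HFL1, against 0.21, 0.21, 0.21 and 0.19 over the 17905. At the median, then, the chosen probe sets of each group varied more between arrays than the others did. Levels were not matched for this, and the values that chose the set also enter these SDs. In GR14 the median level of the set was 8.24, against 10.42 in the other 9 arrays, and dim signals are noisy.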

How the data were processed

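The data are 12 rice arrays, in 4 groups of 3. The deposited values are signal intensity per probe set, which the authors computed with MAS5, per the submitters' processing notes; its version is not given in the sources used here. Trimmed by 2% at each end, the mean signal was 499.9 on all arrays, so each array had been scaled. Array number limits the precision. Of 57381 probe sets, 123 AFFX and 64 RPTR controls were left out.

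From the deposited intensity, log2 was taken with no further normalization. Groups were taken from the strain label, and replicate numbers follow accession order and pair no samples. Nothing says that replicates are separate plants, so p-values may reflect technical spread alone. The 4 groups entered 1 model in limma 3.58.1 with R 4.3.3 (lmFit, eBayes with an intensity trend), two-sided. It covered the 31792 probe sets that exceeded the array median on 3 or more arrays, with Benjamini-Hochberg adjustment at 0.05. The fit was tested on simulated data. The comparison of GR14 with the mean of the other 3 groups was chosen after seeing the data and is used only for genes outside the set. The group order without WT array 3 and the marker sum without genes that met the rule were also added after seeing the data.

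The members, the lists and the rule for naming genes were chosen with earlier results of these data known. The rule named the 20 largest gaps, all members with an informative symbol, the 3 probe sets on each side of the threshold, and genes with several member probe sets. Functional lists rest on gene symbols, since the annotation tables used here hold no descriptions; each gene of a list is read at its brightest probe set. All 114 genes were found in the RefSeq table, used for names and gene order only, as the array files name no genome build. Per-sample columns not used here numbered 0. Alternatives were other gap and brightness limits, quantile normalization, median centring, log2(signal + 50), no filter or the 70th percentile, no intensity trend, no _x_at or _s_at probe sets, the 9 arrays outside GR14 alone, WT arrays apart, and leaving out each array.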

Additional observations from a re-analysis of the deposited data

How the results depend on the processing

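The number of probe sets low in GR14 alone, 154, depends by construction on the limits of the rule. It was 300, the most the rule allows, at a gap of at least 0.5 (354 met it), 58 at 1.5, 27 at 2, and 88 with a mean of at least 10 in the other 9 arrays. It lay between 115 and 167 with a mean of at least 7 or 9, with the other scalings, with log2(signal + 50) and without _x_at and _s_at probe sets, and between 153 and 198 when each array was left out in turn. In the contrasts among WT, 35S-15 and HFL1, 0 of the tested members passed under every alternative run. No paired analysis was possible because the labels give no replicate numbers shared between groups. Without _x_at and _s_at probe sets 1 rather than 3 of the chlorophyll genes outside the set was lower in GR14, since that setting leaves out the probe sets of PORB and HEMB. For the genes with a symbol, 220 of 225 settings moved the difference by less than 1 SD and 0 reversed it; the other 5 were all log2(signal + 50), which shrinks differences of dim probe sets, as for CLA1 (-2.60 rather than -4.87). Of the photosynthesis genes outside the set, 2 to 4 were lower in GR14 across settings, with 2 when any GR14 array was left out. The median difference from WT of the members ran from -0.02 to 0.18 for 35S-15 and from 0.00 to 0.23 for HFL1 when each array was left out, the lowest without WT array 3. For HFL1 against 35S-15 it was 0.07, and -0.07 without 35S-15 array 3. Signals near the array median limit the size of such differences.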
